A study of Mus musculus with 6 samples.

Results

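Ly6c1, Ly6c2 and Ly6g encode small surface proteins of the Ly6/uPAR family and belong to a cluster of such genes on mouse chromosome 15. They were taken here as the features of the deposited matrices that carry 1 of these 3 gene symbols alone, out of 5301 features found in any of the 3 matrices, and all 3 were present in every matrix. A further feature, in which reads matching both Ly6c1 and Ly6c2 had been counted, is called the joined feature and is given apart. The cells came from Balb/c mice injected in the heart with 4T07 cells, a mouse mammary tumour line that seeds metastases in the liver, carrying either a scrambled control construct (Ctrl) or an shRNA against Tim3 (Tim3-KD). Cells with CD45, a surface protein of leukocytes, were sorted from pieces of liver and profiled by 10x 3' single-cell RNA-seq. Some cells with endothelial markers were among them, at 7.04% of cells in the Ctrl macrometastasis library. For each of Ctrl and Tim3-KD there was a library from tumour-free adjacent tissue (AT) at day 3, from micrometastases (Micro) at day 3 and from macrometastases (Macro) at day 12. All 6 libraries were pools of 2 mice, whose age is not given in the sources used here, and each was the only library of its group. No test between groups was therefore possible, and the intervals given are 95% intervals that cover counting error only. Tim3 was knocked down in the 4T07 cells alone. The sort for CD45 is meant to remove tumour cells, which was not checked here, so these libraries cannot show how well the knockdown worked.

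The proteins of this family share a fold held by disulphide bonds, and most, these 3 included, are attached to the outer membrane by a glycosylphosphatidylinositol anchor. Ly6C, the product of Ly6c1 and Ly6c2, is high on classical monocytes and is also found on plasmacytoid dendritic cells, on memory and effector CD8 T cells and on part of the NK cells. Ly6G appears on neutrophils as they mature in the bone marrow and is used to identify and to deplete them in mice. Antibodies to Ly6C and Ly6G are commonly combined to tell monocytes (Ly6C high, Ly6G negative) from neutrophils (Ly6G positive, Ly6C intermediate). The usual question behind these genes in metastatic tissue is therefore which myeloid cells are present and at which stage.

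The sequences of the 3 genes matter for what could be counted, because an mRNA fragment shared by Ly6c1 and Ly6c2 cannot be assigned to either. In the GRCm38 build Ly6c1 (ENSMUSG00000079018) spans chr15:75044018-75048830 on the minus strand, Ly6c2 (ENSMUSG00000022584) spans chr15:75108158-75111970 on the minus strand and Ly6g (ENSMUSG00000022582) spans chr15:75155240-75159126 on the plus strand. Each has 4 exons in its longest coding transcript. The coding sequences of Ly6c1 and Ly6c2 were 97.7% identical, with 9 of 393 bases different, whereas Ly6g shared 80.7% with Ly6c1 and 79.2% with Ly6c2. The last 90 coding bases are shown because they lie towards the 3' end that this chemistry reads, and 90 bases is the length of the cDNA read. Capitals mark bases that differ from the aligned base of Ly6c2.
Ly6c1, chr15:75045405-75045494, minus strand, coding part of an exon: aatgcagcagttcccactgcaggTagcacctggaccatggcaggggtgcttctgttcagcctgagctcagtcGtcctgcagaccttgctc
Ly6c2, chr15:75108546-75108635, minus strand, coding part of an exon: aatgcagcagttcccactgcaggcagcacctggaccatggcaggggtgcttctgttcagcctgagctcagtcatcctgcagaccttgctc
Ly6g, chr15:75158647-75158736, plus strand, coding part of an exon: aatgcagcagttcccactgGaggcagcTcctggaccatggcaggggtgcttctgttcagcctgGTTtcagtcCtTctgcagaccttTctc
Ly6c1 differed from Ly6c2 at 2 of these bases and Ly6g at 8. Over the longest coding transcript, 134 of the 755 windows of 90 bases in Ly6c1 (17.7%) were also found in a transcript of Ly6c2, while 0 of the 852 windows of Ly6g were found in either Ly6c gene. The reference is the C57BL/6J genome and the mice were Balb/c, and the part that strain differences play in the counts was not tested.

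The 250 bases before each transcription start (RefSeq, GRCm38) are shown because the 3 genes belong to the same gene cluster and are used in different myeloid cells. Capitals mark GAGGAAGT, a core bound by the myeloid factor PU.1, and TATAAA, the core of a TATA box. The motifs were chosen with the sequences in view.
Ly6c1, chr15:75048838-75049087, minus strand: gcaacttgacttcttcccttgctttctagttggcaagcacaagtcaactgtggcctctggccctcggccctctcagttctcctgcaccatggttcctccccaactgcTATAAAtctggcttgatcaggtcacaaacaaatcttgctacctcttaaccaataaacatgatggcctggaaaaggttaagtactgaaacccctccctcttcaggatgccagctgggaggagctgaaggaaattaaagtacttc
Ly6c2, chr15:75111972-75112221, minus strand: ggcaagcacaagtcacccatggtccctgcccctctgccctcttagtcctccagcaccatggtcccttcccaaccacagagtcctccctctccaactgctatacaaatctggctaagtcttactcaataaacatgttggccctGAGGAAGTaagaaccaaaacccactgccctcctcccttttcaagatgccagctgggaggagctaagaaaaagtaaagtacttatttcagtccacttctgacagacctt
Ly6g, chr15:75155011-75155260, plus strand: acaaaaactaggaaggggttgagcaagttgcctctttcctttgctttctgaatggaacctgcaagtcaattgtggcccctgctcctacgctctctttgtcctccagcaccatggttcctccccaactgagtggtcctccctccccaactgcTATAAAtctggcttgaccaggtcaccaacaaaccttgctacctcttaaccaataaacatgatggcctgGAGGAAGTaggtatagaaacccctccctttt
The windows were closely related in sequence, with 73.4% of aligned positions identical between Ly6c1 and Ly6c2, 76.1% between Ly6c1 and Ly6g and 69.5% between Ly6c2 and Ly6g. GAGGAAGT, searched on both strands, stood 108 bases before the start of Ly6c2 and 31 bases before that of Ly6g, and these letters were not in the Ly6c1 window. They occur in 2.44% of 32851 mouse promoter windows of this length. TATAAA, searched on the coding strand, stood 143 bases before the start of Ly6c1 and 99 bases before that of Ly6g, and 7.59% of windows hold it. TTGCNNAA, the pattern bound by C/EBP factors, was found on either strand 232 bases before the start of Ly6g alone (9.56% of windows), and TGTGGTT, the RUNX core, 180 bases before that of Ly6c2 alone (4.396% of windows). The last 21 bases of the Ly6g window lie inside the gene as GENCODE gives it, since the 2 annotations place its start differently, and the distances given for Ly6g are from the RefSeq start. A match describes the letters and is no evidence of binding.

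The 6 libraries held 23008 cells, from 542 in AT Tim3-KD to 5502 in Macro Tim3-KD, with a median of 6300 to 10248 UMIs per cell. They were clustered together without the 3 genes and the joined feature, and 24 of 25 clusters were named from marker lists in which these genes do not appear, so that the cell classes do not rest on them. Pairs of libraries shared 0 to 11 cell barcodes. AT Tim3-KD stood apart: it had 19 mature neutrophil-like cells and no cell in the earlier neutrophil clusters, against 597 mature neutrophil-like cells and 306 myelocyte or metamyelocyte-like cells in AT Ctrl.

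The joined feature had 0 UMIs in AT Ctrl and in Micro Ctrl, and many in the other 4 libraries. Its level, in CPM over all UMIs of the library's cells, was 242 CPM (interval 231 to 254) in AT Tim3-KD, 320 CPM (316 to 324) in Micro Tim3-KD, 124 CPM (121 to 128) in Macro Ctrl and 221 CPM (217 to 224) in Macro Tim3-KD. In those 4 libraries it held 36.8%, 46.4%, 44.5% and 44.8% of all Ly6c UMIs. Of all joined features of the AT matrix, this one included, 37 of 128 were at 0 in Ctrl and 2 in Tim3-KD, which leans the same way. In Micro 2 of 42 were at 0 in Ctrl and 7 in Tim3-KD, which leans the other way. The single Ly6c1 and Ly6c2 features can thus be set side by side between AT Ctrl and Micro Ctrl, or among the other 4 libraries. Between Ctrl and Tim3-KD of AT or Micro it is not known whether they are like with like, so the sum of the 3 Ly6c features, an alternative added after the data were seen, is given beside them. If reads matching both genes were dropped in AT Ctrl and Micro Ctrl, the single features are like with like and the sum is not, and if they were assigned to the single features, the reverse holds. Which of these applies was not tested, so for Ly6c in AT and Micro neither ratio of Tim3-KD to Ctrl settles the other. Ly6g has no joined feature and is not touched by this.

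**Figure D1:**
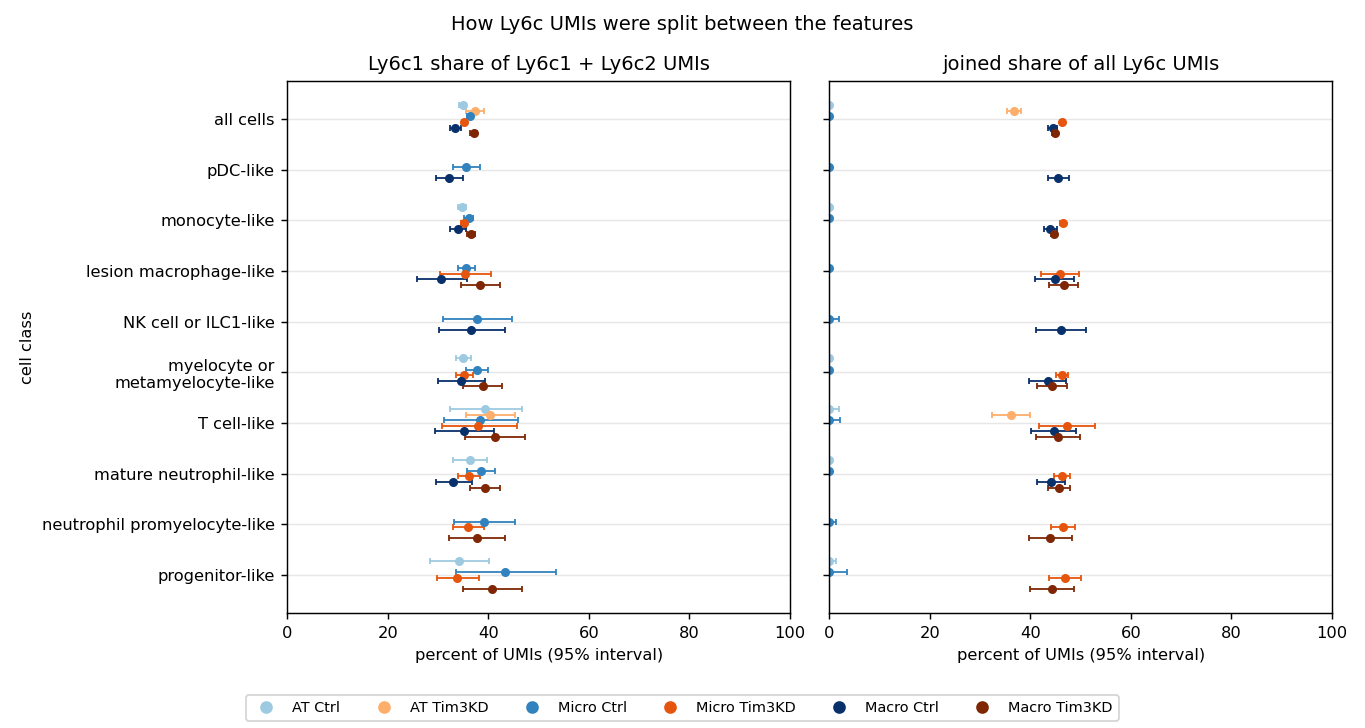
Percent of UMIs, with 95% counting intervals, by cell class (rows) and library (colours), for classes with at least 50 cells and 100 single Ly6c UMIs. The left panel gives the share of Ly6c1 among the single features, which lies between 30.6% and 43.3%, and the right panel the joined share of all Ly6c UMIs, which is 0 in AT Ctrl and Micro Ctrl and 36.8% to 46.4% over all cells of the other 4 libraries.

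Within the single features the split between the Ly6c genes hardly moved. Ly6c1 took between 33.4% and 37.3% of the UMIs assigned to Ly6c1 or Ly6c2 in every library, also in the 2 libraries without joined UMIs. Over classes with at least 50 cells and 100 such UMIs in a library the share ran from 30.6% in the lesion macrophage-like cells of Macro Ctrl to 43.3% in the progenitor-like cells of Micro Ctrl. Over all 62 class and library points with at least 50 cells, in 16 classes that include those with almost no Ly6c, Pearson's r between the log2 levels of Ly6c1 and Ly6c2 was 0.99, a description over points that share libraries and, for this pair, near-identical sequence.

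In whole libraries Ly6g was highest in AT Ctrl and, where it was detected at all, lowest in Macro Ctrl. Ly6g, the neutrophil marker, stood at 465 CPM (458 to 473) in AT Ctrl, 240 (236 to 244) in Micro Ctrl, 255 (252 to 259) in Micro Tim3-KD, 70.9 (68.4 to 73.5) in Macro Ctrl and 96.54 (94.13 to 98.997) in Macro Tim3-KD. It had 0 UMIs in the 542 cells of AT Tim3-KD, where a count of 0 allows up to 0.423 CPM (3 UMIs). The order was thus AT Ctrl, the Micro libraries, the Macro libraries and AT Tim3-KD, and the counting intervals of no neighbours in it overlapped, although the spread between mice is not known.

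Ly6c2 stood at 441 CPM (433 to 448) in AT Ctrl, 261 (249 to 273) in AT Tim3-KD, 231 (227 to 235) in Micro Ctrl, 239 (236 to 243) in Micro Tim3-KD, 103 (100 to 106) in Macro Ctrl and 171 (168 to 174) in Macro Tim3-KD. Ly6c1 stood at 236 CPM (231 to 242), 155 (146 to 165), 132 (129 to 135), 130 (128 to 133), 51.8 (49.7 to 54.0) and 101 (98.2 to 103) in the same order. Among the 4 libraries with joined UMIs, AT Tim3-KD and Micro Tim3-KD were the highest and Macro Ctrl the lowest for both genes, and of the libraries without them AT Ctrl was above Micro Ctrl. With the joined feature added, Ly6c stood at 677 CPM in AT Ctrl, 659 in AT Tim3-KD, 363 in Micro Ctrl, 689 in Micro Tim3-KD, 280 in Macro Ctrl and 492 in Macro Tim3-KD. This sum has Micro Tim3-KD and AT Ctrl as the highest, and it holds no joined UMIs in AT Ctrl and Micro Ctrl. Between the Macro libraries, which both have them, Tim3-KD was higher in the single features and in the sum. In a sum over a whole library, fewer cells of a type and less RNA per cell cannot be told apart.

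**Figure D2:**
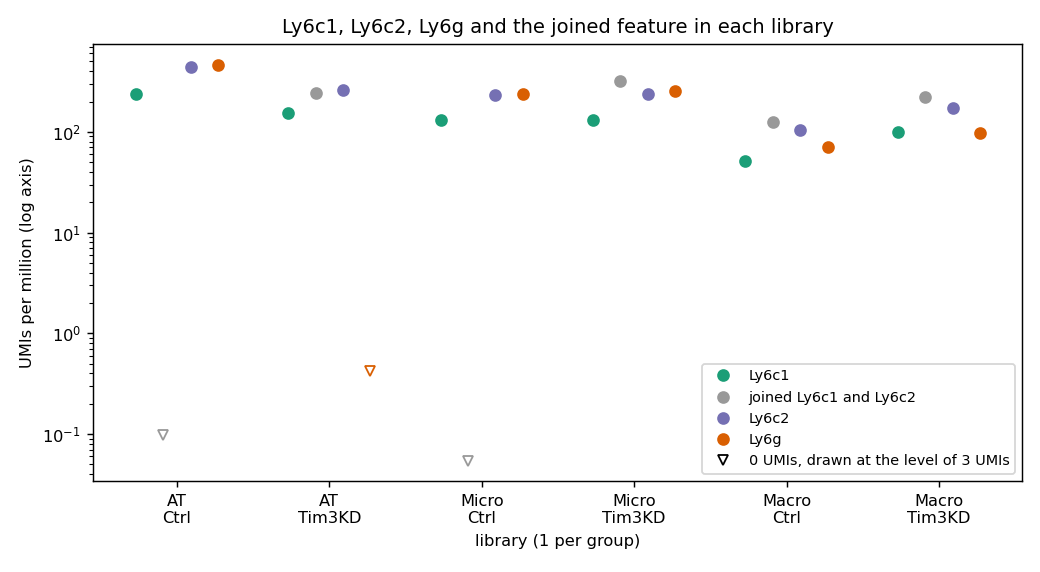
Levels in CPM, on a log axis, of Ly6c1, Ly6c2, Ly6g and the joined feature in the 6 libraries, with 1 point per library and no error bars, since the counting intervals are smaller than most points. Open triangles mark 0 UMIs, drawn at the level of 3 UMIs, for Ly6g in AT Tim3-KD and for the joined feature in AT Ctrl and Micro Ctrl.

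The ratio of Tim3-KD to Ctrl asks how the leukocytes around tumour cells with less TIM3 differ. For Ly6g it was 1.06 (1.04 to 1.09) in Micro and 1.36 (1.303 to 1.42) in Macro, and in AT the level was at least 1099-fold lower in Tim3-KD at the limit of 3 UMIs. Leaving out cells with a doublet score over 0.15 turned the small Micro difference to the other side of 1. For the summed Ly6c features it was 0.973 (0.942 to 1.00) in AT, 1.90 (1.87 to 1.93) in Micro and 1.76 (1.72 to 1.80) in Macro. For Ly6c2 alone it was 0.592 (0.564 to 0.622) in AT, 1.04 (1.01 to 1.06) in Micro and 1.65 (1.60 to 1.71) in Macro, and for Ly6c1 alone 0.658 (0.617 to 0.701), 0.986 (0.957 to 1.02) and 1.94 (1.85 to 2.04). A difference of 2-fold or more in either direction was found in AT for 1 of the 3 genes, Ly6g, beside 42.0% of all features there. It was found in Micro and in Macro for 0 of 3, beside 18.5% and 12.4% of all features. The median log2 ratio over all features was not 0 but 0.57 in AT, -0.43 in Micro and -0.26 in Macro. Scaled by a trimmed mean over features, the log2 ratios of Ly6c1, Ly6c2 and Ly6g were 0.42, 0.49 and 0.53 in Micro and 1.23, 0.99 and 0.71 in Macro, which turns Ly6c1 in Micro from just below its Ctrl level to above it. In AT this scaling gave -1.18 for Ly6c1 and -1.33 for Ly6c2, and leaving out cells with a high doublet score gave -1.20 and -1.34, so that under either all 3 genes were at least 2-fold lower there.

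Between sites of Ctrl, all 3 genes were lower in Micro than in AT, by less than 2-fold, and lower again in Macro. The ratio of Micro to AT was 0.559 for Ly6c1, 0.525 for Ly6c2 and 0.516 for Ly6g, and 12.8% of all features differed by 2-fold or more. The median log2 ratio over all features was 0.30, and under the trimmed mean scaling the 3 genes stood at -1.14, -1.23 and -1.26, past 2-fold. The ratio of Macro to Micro in Ctrl was 0.393, 0.447 and 0.295, so 3 of 3 were at least 2-fold lower, beside 25.8% of all features in either direction (70 of 1763 lower and 385 higher). For Ly6c this last ratio sets a library without joined UMIs against one with them, and the sum of the 3 Ly6c features gave 0.770 (0.752 to 0.787). In Tim3-KD, where both lesion libraries have joined UMIs, the ratio of Macro to Micro was 0.773 for Ly6c1, 0.714 for Ly6c2 and 0.378 for Ly6g. Macro differed from Micro in day as well as in lesion, and these cannot be told apart.

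The lists of genes that go with the members gave context to these ratios. Over all features, differences of 2-fold or more ran mostly 1 way at each site. In AT 1413 of 4331 features were higher in Tim3-KD and 406 lower. In Micro 17 of 2627 were higher and 470 lower, and in Macro 54 of 2594 were higher and 268 lower. In AT all 9 early granule genes, all 7 secondary and tertiary granule genes and 6 of 7 late neutrophil genes were at least 2-fold lower in Tim3-KD, with median log2 ratios of -10.55, -4.77 and -2.13 beside 0.57 over all features, of which 42.0% were past 2-fold in either direction. Of the classical monocyte genes there, 5 of 8 were at least 2-fold lower and none higher, and of the non-classical monocyte genes 6 of 9 and of the memory and effector T cell genes 7 of 8 were higher and none lower. In Micro, where 18.5% of all features were past 2-fold, 5 of 9 early granule genes were at least 2-fold higher in Tim3-KD, 0 of 6 secondary and tertiary granule genes differed so far, and 7 of 8 memory and effector T cell genes, 5 of 7 non-classical monocyte genes, 2 of 7 classical monocyte genes and 1 of 9 late neutrophil genes were lower, with none of these higher. In Macro, where 12.4% of all features were past 2-fold, 7 of 9 early granule genes and 2 of 8 classical monocyte genes were higher by that much and none of either list lower, while 2 of 8 memory and effector T cell genes and 1 of 9 non-classical monocyte genes were lower. The 9 secondary and tertiary granule genes and 6 late neutrophil genes of Macro did not differ so far. The early granule list holds genes of proteases and other granule contents of promyelocytes, such as Elane and Mpo. It also holds Cebpe, Ms4a3 and the cell cycle genes Mki67 and Top2a.

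Among cell classes Ly6g marked the neutrophils from the myelocyte stage on and was near 0 elsewhere. In myelocyte or metamyelocyte-like cells it ran from 308 to 1081 CPM over the 5 libraries with at least 50 such cells, with a median of 430, and in mature neutrophil-like cells from 169 to 608 CPM with a median of 488. Nearly all Ly6g UMIs came from these 2 classes, as the shares below show. In promyelocyte-like cells, the stage before, Ly6g was at 0 to 0.706 CPM in 3 libraries although their early granule genes summed to 42059 to 44404 CPM. Monocyte-like cells had 1.15 to 2.24 CPM, lesion macrophage-like cells 0.476 to 2.53 and T cell-like cells 0 to 3.64. B cell-like cells, which should lack Ly6g, had 0 to 9.06 CPM, so levels of a few CPM were at the background of these libraries. The 16.3 CPM of the basophil or mast cell-like class in Micro Tim3-KD was 8 UMIs in 1 cell of 52.

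Ly6c2 had another order. It was highest in plasmacytoid dendritic cell-like cells, at 1289 and 1350 CPM in the 2 libraries with at least 50 of them, and in monocyte-like cells, at 879 to 1441 CPM in 5 libraries. The 2 ranges overlapped. Lesion macrophage-like cells followed with 150 to 370 CPM, then NK cell or ILC1-like cells with 26.5 to 152, myelocyte or metamyelocyte-like cells with 62.7 to 233, T cell-like cells with 45.9 to 154, CD8 T cell-like cells, a class apart from these, with 43.5 to 91.9, and mature neutrophil-like cells with 37.9 to 126. The ranges of these last classes overlapped each other, so their order depends on the library. The 51 non-classical monocyte-like cells of Macro Ctrl had 76.6 CPM, against 879 in the monocyte-like cells of that library; non-classical monocytes are known as Ly6C low. B cell-like cells had 2.49 to 14.7 CPM and Kupffer-like cells, the resident macrophages of the liver, 0.955 to 3.24. Ly6c1 had a like order, with 612 and 746 CPM in plasmacytoid dendritic cell-like cells, 452 to 769 in monocyte-like cells, 66.2 to 204 in lesion macrophage-like cells and 0.0955 to 2.60 in Kupffer-like cells. The joined feature, where a library had any, was highest in the same classes, at up to 1592 CPM in plasmacytoid dendritic cell-like and 1436 CPM in monocyte-like cells, against at most 3.48 CPM in Kupffer-like cells.

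**Figure D3:**
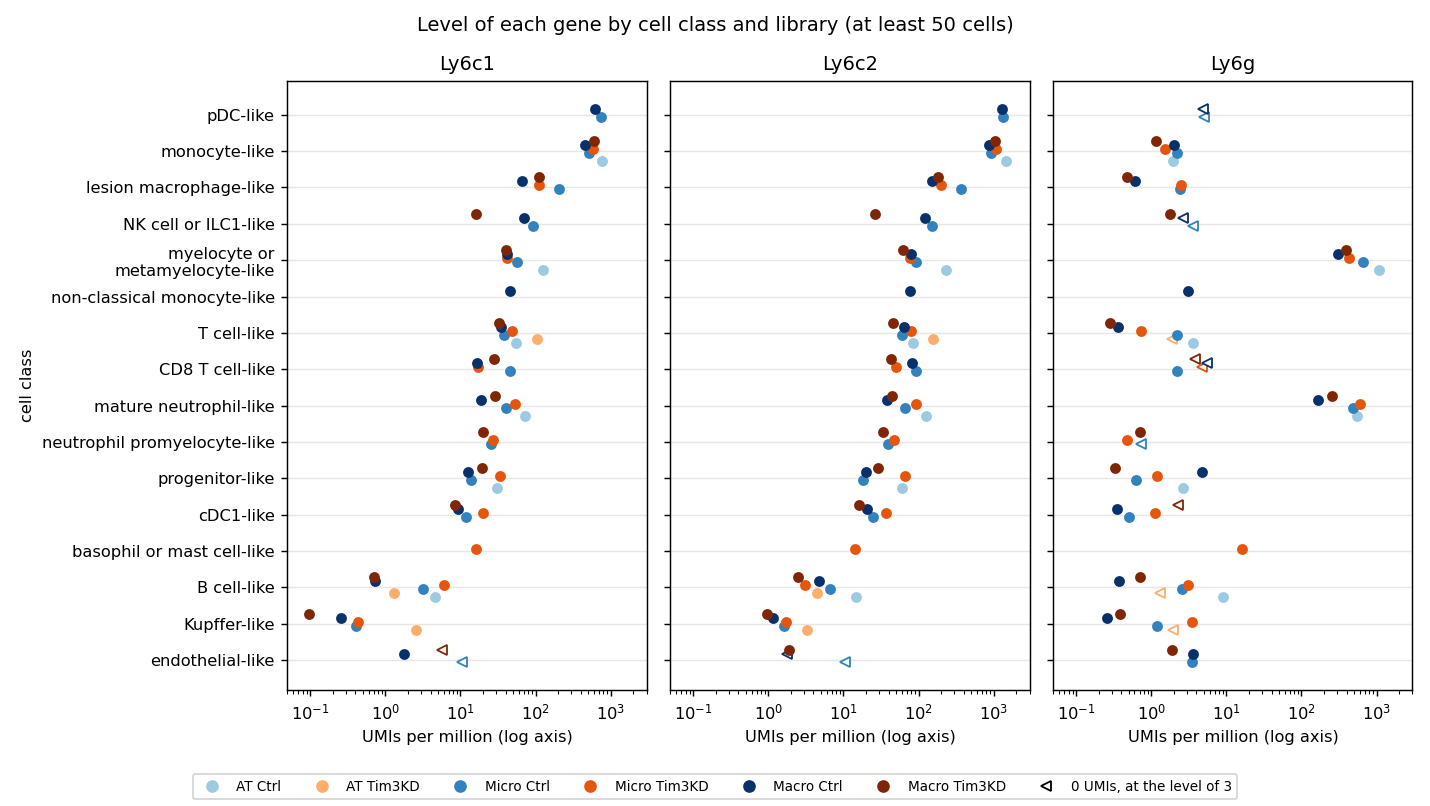
Levels in CPM, on a log axis, of Ly6c1, Ly6c2 and Ly6g in each cell class, with 1 point per library that holds at least 50 cells of the class and open triangles for 0 UMIs, drawn at the level of 3 UMIs. Ly6g lies between 169 and 1081 in the mature and the myelocyte or metamyelocyte-like classes and at 16.3 or less in the others, while Ly6c2 lies at 879 or more in monocyte-like and plasmacytoid dendritic cell-like cells.

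The cells that supplied the transcripts differed by library. Monocyte-like cells were 13.8% of cells in AT Ctrl and gave 71.4% of its Ly6c2 UMIs. They were 12.9% and 15.7% of cells in Micro Ctrl and Tim3-KD and gave 60.7% and 73.4%, and 4.21% and 7.29% of cells in Macro Ctrl and Tim3-KD and gave 48.6% and 75.9%. The remainder in Macro Ctrl included 17.8% from plasmacytoid dendritic cell-like cells, and in Micro Ctrl 14.2% from lesion macrophage-like cells. In AT Tim3-KD 15 monocyte-like cells gave 41.4% of the Ly6c2 UMIs and 17 plasmacytoid dendritic cell-like cells 34.3%, at 2134 and 1930 CPM. Its 19 mature neutrophil-like cells had 0 UMIs of Ly6g, which allows a share of cells with a UMI of up to 15.8% (3 counts of 19). Their exact upper limit was 35.6 CPM, against 186 CPM or more in the same cluster, cluster 0, of the other 5 libraries. That limit covers counting error only and rests on few cells. In AT Ctrl 26.1% of the cells of the same cluster had a UMI.

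For Ly6g the supply moved from earlier to later neutrophils. Myelocyte or metamyelocyte-like cells gave 83.6% of Ly6g UMIs in AT Ctrl, 59.7% and 58.6% in Micro Ctrl and Tim3-KD, and 33.7% and 38.8% in Macro Ctrl and Tim3-KD. Their share of cells was 17.0%, 8.56%, 19.4%, 2.83% and 3.98% in the same order. Mature neutrophil-like cells made up 29.5% to 35.8% of cells in all 5, and gave 16.1% of Ly6g UMIs in AT Ctrl and 65.4% in Macro Ctrl.

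Neutrophils fell into 6 clusters that could be ordered by granule genes without using the members. Cluster 22, named promyelocyte-like, had the early granule genes at 42059 to 44404 CPM in sum and the secondary granule genes at 36.2 to 130. In cluster 3 the early sum was 8140 to 17530 CPM and the secondary sum 6781 to 10074, and in cluster 9 the early sum was 667 to 1000 and the secondary sum 13584 to 18929.9, the highest. Clusters 3 and 9 are the myelocyte or metamyelocyte-like class. Clusters 1, 0 and 2 are the mature class, with early sums of at most 143 CPM, and late genes such as Cxcr2, the chemokine receptor of mature neutrophils, were highest in cluster 0.

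Along this order Ly6g appeared after the early granule genes and peaked with the secondary granule genes. In AT Ctrl it was at 639 CPM in cluster 3, 1536 in cluster 9, 1179 in cluster 1 and 205 in cluster 0. In Micro Ctrl the same clusters had 310, 1271, 729 and 191 CPM, after 0 in cluster 22. In Micro Tim3-KD the levels were 0.479, 221, 931, 740 and 272 CPM from cluster 22 to cluster 0. Cluster 9 was thus the highest and cluster 0 a later stage of lower level in these 3 libraries.

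The Macro libraries differed from each other. In Macro Ctrl Ly6g was at 219 CPM in cluster 3, 440 in cluster 9, 186 in cluster 0 and 162 in cluster 2. In Macro Tim3-KD it was at 0.706 in cluster 22, 162 in cluster 3, 801 in cluster 9, 968 in cluster 1, 193 in cluster 0 and 220 in cluster 2, so that cluster 1 with its 97 cells was the highest there. Macro Ctrl had too few cells in clusters 22 and 1 for a level. Cluster 2, led by Bcl2l15, Arrdc4 and Saa3, held 1339 and 949 cells of the Macro libraries, 17 and 4 of the Micro libraries and 0 of the AT libraries. Since depth differed along this order, from a median of 43412 UMIs per cell in cluster 22 to 34161 in cluster 3, 18985 in cluster 9, 7275 in cluster 1 and 5148.5 in cluster 0, UMIs of Ly6g per cell were also computed. They were 29.3 in cluster 3, 45.3 in cluster 9 and 14.8 in cluster 1 of AT Ctrl, and 11.6, 24.7 and 6.59 in Micro Ctrl, which gives the same peak. A UMI of Ly6g was found in 100% of the cells of cluster 9 in AT Ctrl, 99.6% in Micro Ctrl and 81.6% in Macro Ctrl, and in 26.1%, 27.6% and 35.5% of those of cluster 0.

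Ly6c2 followed a like course in neutrophils at a lower level. It was already present in promyelocyte-like cells, at 39.2 CPM in Micro Ctrl, 47.9 in Micro Tim3-KD and 33.4 in Macro Tim3-KD, where Ly6g was near 0. It stood at 125, 345, 258 and 51.6 CPM in clusters 3, 9, 1 and 0 of AT Ctrl and at 52.2, 166, 88.8 and 36.6 CPM in Micro Ctrl. In every library with cells in both, cluster 9 was above cluster 0. These levels lie well below the 879 CPM or more of monocyte-like cells.

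**Figure D4:**
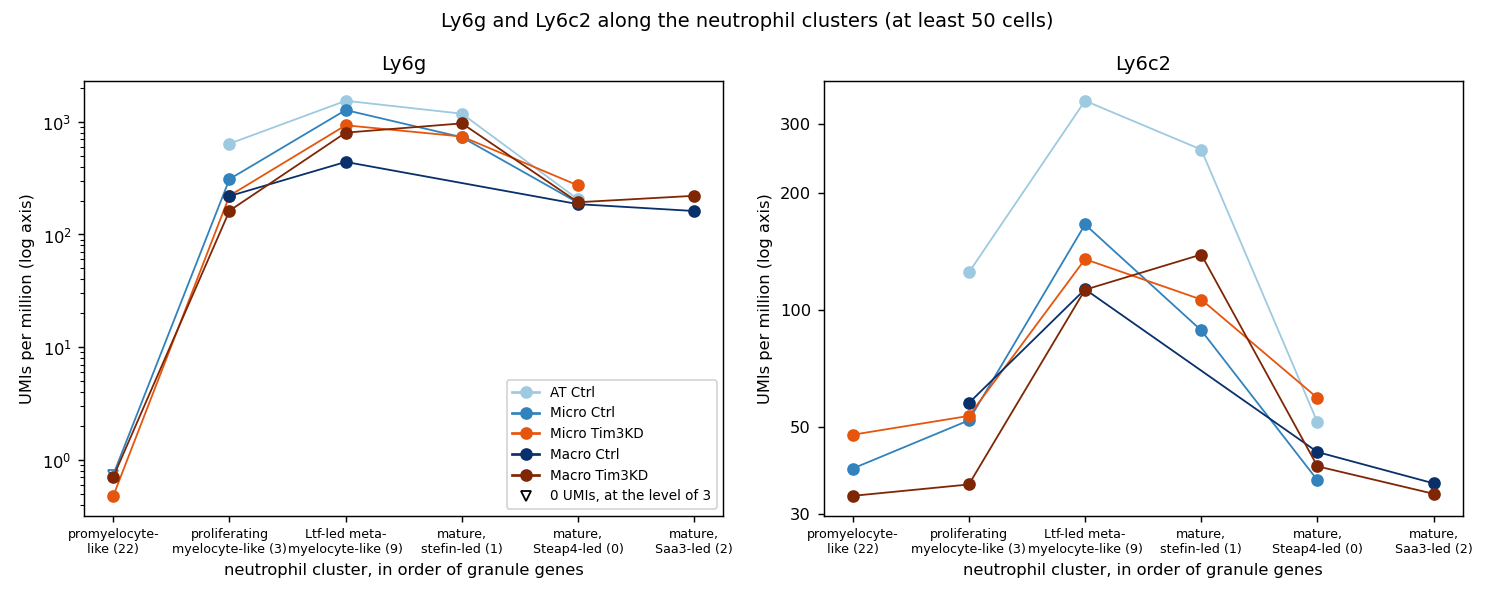
Levels in CPM, on a log axis, of Ly6g and Ly6c2 in neutrophil clusters (numbers in brackets) ordered by their granule genes, with 1 line per library, points for at least 50 cells and no error bars. Ly6g is at most 0.706 in cluster 22, where an open triangle marks 0 UMIs, drawn at the level of 3 UMIs, in Micro Ctrl, and it is highest in cluster 9 in every library but Macro Tim3-KD, where cluster 1 is higher.

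Within neutrophil stages the ratio of Tim3-KD to Ctrl for Ly6g depended on the stage and the site. In the myelocyte or metamyelocyte-like class it was 0.661 (0.642 to 0.680) in Micro and 1.25 (1.16 to 1.35) in Macro. In the mature class it was 1.25 (1.20 to 1.29) in Micro and 1.53 (1.45 to 1.62) in Macro. None of the 4 ratios reached 2-fold, a size that 2.66% of all features in Micro and 4.77% in Macro reached in the myelocyte or metamyelocyte-like class, and 4.83% and 4.71% in the mature class. The difference of the ratios between sites was not tested, since each site has 1 library of each kind.

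The clusters that make up a class had different shares in the libraries, so the ratios are also given within clusters. In Micro they were 0.712 (0.678 to 0.749) in cluster 3, 0.732 (0.707 to 0.758) in cluster 9, 1.01 (0.977 to 1.05) in cluster 1 and 1.42 (1.303 to 1.56) in cluster 0. Both early clusters were thus lower in Tim3-KD, cluster 1 was level within counting error, and cluster 0 was higher. In Macro the ratios were 0.741 (0.656 to 0.838) in cluster 3, 1.82 (1.66 to 2.00) in cluster 9, 1.04 (0.932 to 1.16) in cluster 0 and 1.36 (1.27 to 1.47) in cluster 2. Cluster 3 was lower in Tim3-KD at both sites, while cluster 9 was lower in Micro and higher in Macro. Macro Ctrl had 52 cells in cluster 3 and 87 in cluster 9.

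Between sites of Ctrl, Ly6g within the myelocyte or metamyelocyte-like class was lower in Micro than in AT, at a ratio of 0.602, and lower in Macro than in Micro, at 0.474. In the mature class the ratios were 0.882 and 0.345. In cluster 0 alone they were 0.933 and 0.973, so the late neutrophils of this cluster had close levels at all 3 sites, and the low level of the mature class in Macro Ctrl went with its 1339 cells of cluster 2 and its 4 cells of cluster 1. The granule lists in the mature class gave 0 of 9 secondary and tertiary granule genes past 2-fold between Tim3-KD and Ctrl in Macro, and 0 of 6 in Micro, beside 4.71% and 4.83% of all features. Of the early granule genes 3 of 5 were at least 2-fold higher in Macro, with a median log2 ratio of 1.04, and 0 of 6 in Micro, and of the late genes 0 of 6 and 1 of 9, the latter lower.

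Monocyte-like cells carried most of the Ly6c transcripts. Their Ly6c2 level was 1441 CPM (1413 to 1470) in the 249 cells of AT Ctrl, 926 (906 to 947) in 661 cells of Micro Ctrl, 1076 (1059 to 1094) in 807 cells of Micro Tim3-KD, 879 (842 to 916) in 207 cells of Macro Ctrl and 1049 (1026 to 1072) in 401 cells of Macro Tim3-KD. AT Ctrl was above Micro Ctrl, both without joined UMIs, and among the other 3 Macro Ctrl was the lowest. A UMI was found in 86.0% to 98.8% of the cells. With the joined feature added the order was Micro Tim3-KD at 3095 CPM, Macro Tim3-KD at 2985, Macro Ctrl at 2375, AT Ctrl at 2211 and Micro Ctrl at 1448. The ratio of Tim3-KD to Ctrl was 1.16 (1.13 to 1.19) in Micro and 1.19 (1.14 to 1.25) in Macro for Ly6c2, and 1.12 and 1.33 for Ly6c1. Clustering with the members kept in moved the Macro value of Ly6c2 to the other side of 1. With the joined feature added the ratios were 2.14 in Micro, where the Ctrl library has no joined UMIs, and 1.26 (1.22 to 1.29) in Macro. Marker sums also differed between these cells: the 12 neutrophil markers came to 1651 CPM in Micro Ctrl and 899 in Micro Tim3-KD and to 2158 and 1151 in Macro, and the 8 monocyte markers to 5295 and 3935, and 4985 and 4154. Their part in the ratios was not tested. A 2-fold difference was reached by neither gene, beside 15.4% of all features in the monocyte-like cells of Micro and 19.2% in those of Macro.

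The class is made of 2 clusters, of which cluster 4 is led by F13a1 and Fn1 together with the cycling genes Top2a and Mki67. Cluster 4 held 67 of the monocyte-like cells of Micro Ctrl and 318 of Micro Tim3-KD, and 6 and 108 in Macro. In cluster 7, the larger, the ratio for Ly6c2 was 1.23 (1.19 to 1.28) in Micro and 1.15 (1.09 to 1.21) in Macro, and in cluster 4 it was 1.23 (1.17 to 1.299) in Micro. The ratio was therefore at least as large within clusters as over the class in Micro. The early granule genes of neutrophils and their precursors summed to 5688 to 10866 CPM in cluster 4 and to 247 to 585 CPM in cluster 7. In the class as a whole 8 of 9 of them were at least 2-fold higher in Tim3-KD in Micro and 9 of 9 in Macro. Of all features, 86 of 1965 were higher and 216 lower in Micro, and 109 of 1221 were higher and 126 lower in Macro. Late neutrophil genes went the other way, with 3 of 8 lower in Micro and 2 of 5 in Macro and none higher. The part of these lists in the Ly6c2 ratio was not tested.

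Lesion macrophage-like cells, defined by genes such as Trem2 and Spp1 with 10 and 3 cells in the AT libraries, had intermediate Ly6c. Ly6c2 was at 370 CPM in 458 cells of Micro Ctrl, 200.5 in 136 cells of Micro Tim3-KD, 150 in 117 cells of Macro Ctrl and 180 in 160 cells of Macro Tim3-KD. Micro Ctrl, the library of these 4 without joined UMIs, was thus apart from the other 3. The ratio of Tim3-KD to Ctrl was 0.543 (0.472 to 0.621) in Micro and 1.20 (1.02 to 1.41) in Macro for Ly6c2, and 0.536 (0.443 to 0.644) and 1.69 (1.34 to 2.14) for Ly6c1. The Micro ratio of the summed Ly6c features was 0.998 (0.917 to 1.09), so a difference was seen in the single features and not in the sum, and the data do not settle which is like with like. In Macro the sum gave 1.39 (1.26 to 1.54), and without cells of a high doublet score the Ly6c2 ratio moved to the other side of 1. Markers of other myeloid cells also differed between these cells: the 8 monocyte markers in all matrices summed to 3806 CPM in Micro Ctrl and 3179 in Micro Tim3-KD, the 12 neutrophil markers to 2499 and 5987, and the 12 Kupffer cell markers to 347 and 1373. In Macro the 3 lists summed to 1642 and 2613, 2062 and 2288, and 598 and 573. Their part in the Ly6c ratios was not tested.

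**Figure D5:**
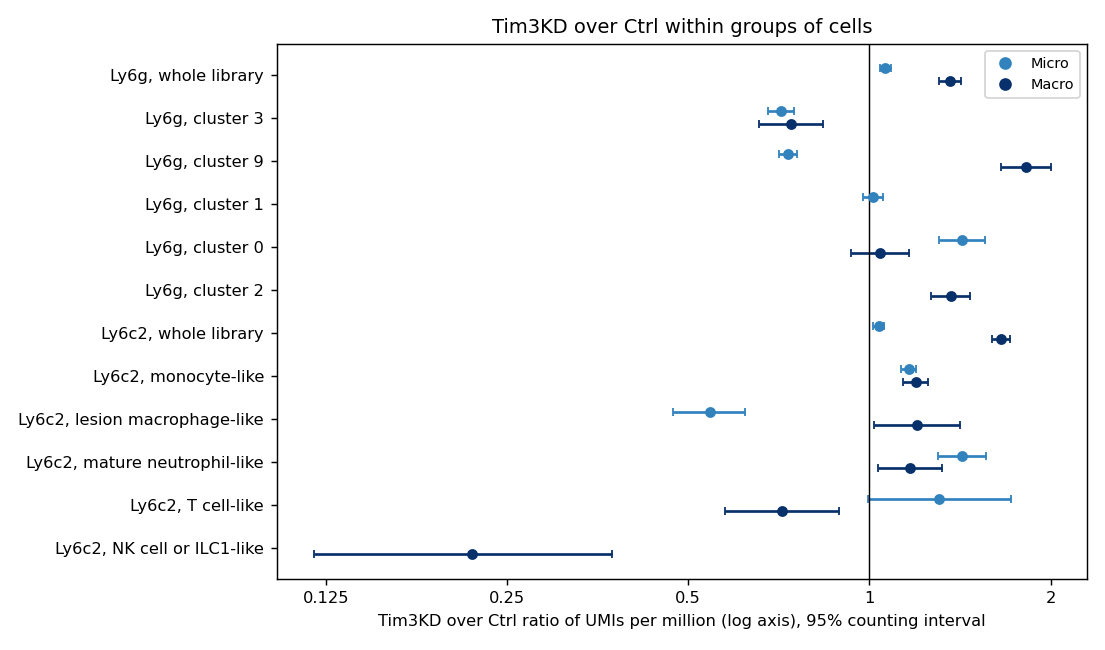
Ratio of Tim3-KD to Ctrl, on a log axis, of Ly6g and Ly6c2 in the whole library and within cell classes or clusters of Micro and Macro, with exact conditional 95% intervals that cover counting error only. Ly6g in cluster 9 lies below 1 in Micro (0.732) and above it in Macro (1.82), and Ly6c2 in NK cell or ILC1-like cells of Macro lies lowest (0.219).

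Lymphocytes used Ly6c at lower levels. In T cell-like cells Ly6c2 stood at 84.5 CPM in AT Ctrl and 154 in AT Tim3-KD, 61.0 and 79.7 in Micro, and 64.0 and 45.9 in Macro. The ratio of Tim3-KD to Ctrl was 1.82 (1.45 to 2.29) in AT, 1.31 (0.993 to 1.72) in Micro and 0.716 (0.576 to 0.891) in Macro. The summed Ly6c features gave 2.90 in AT and 2.46 in Micro, where the Ctrl libraries have no joined UMIs, and 0.804 in Macro. The class had a different make-up in each library, and its clusters differed in level. Cluster 10, led by Xcl1, Ifng and Il2rb, had 101 to 262 CPM, whereas cluster 12, led by Lef1, Il7r and Tcf7, genes of naive and central memory T cells, had 20.1 to 63.0, and cluster 13, led by Ctla4, Tnfrsf4 and Ikzf2, genes of regulatory T cells, had 0 to 17.4. In Micro, cluster 10 held 108 cells of Ctrl and 122 of Tim3-KD, and cluster 12 held 148 and 42. In AT the numbers were 87 and 40 in cluster 10 and 56 and 66 in cluster 12, and in Macro 83 and 168, and 210 and 222. Within cluster 10 the ratio of Tim3-KD to Ctrl for Ly6c2 was 0.839 (0.565 to 1.24) in Micro, against 1.31 over the class, and 0.541 (0.421 to 0.695) in Macro. Within cluster 12 it was 0.678 (0.406 to 1.14) in AT, against 1.82 over the class, and 0.699 (0.392 to 1.23) in Macro. The class ratios of Ly6c2 above 1 were thus not found in cluster 10 of Micro or cluster 12 of AT. Cluster 10 in AT and cluster 12 in Micro had under 50 cells in Tim3-KD and were not compared. Cluster 24, described below, was not among the clusters compared either, and its level was highest in Micro Tim3-KD. The single features leave out the joined UMIs, which in cluster 10 stood at 0 in Micro Ctrl and 126 CPM in Micro Tim3-KD, and in cluster 12 at 0 in AT Ctrl and 38.1 in AT Tim3-KD. The statement on clusters 10 and 12 therefore does not extend to the summed features. Cluster 24, led by Cd8b1 and Cd8a and mostly CD8 T cell-like, had 41.0 to 90.5, highest in Micro Tim3-KD, a range that overlapped that of cluster 12. In the CD8 T cell-like cells the ratio of Ly6c2 was 0.548 (0.335 to 0.888) in Micro and 0.525 (0.326 to 0.838) in Macro. That of the summed Ly6c features was 0.924 and 0.707. The class held 79 cells of Micro Ctrl and 117 of Micro Tim3-KD, and cluster 24 held 91 and 142. The lower Ly6c2 level of the class in Micro Tim3-KD was thus not seen over cluster 24. Markers of other cells differed here too. The neutrophil markers summed to 120 CPM in CD8 T cell-like cells of Micro Ctrl and 293 in those of Micro Tim3-KD, and to 99.6 and 113 in Macro. In T cell-like cells the B cell markers summed to 415 and 153 CPM in AT Ctrl and Tim3-KD, 280 and 501 in Micro, and 657 and 1013 in Macro, and the neutrophil markers to 161 and 52.3, 217 and 278, and 228 and 113. Their part in the T cell ratios was not tested.

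In NK cell or ILC1-like cells, Ly6c2 was at 152 CPM in the 187 cells of Micro Ctrl, 121 in 197 cells of Macro Ctrl and 26.5 in 79 cells of Macro Tim3-KD. The last value was 15 UMIs. The ratio of Tim3-KD to Ctrl in Macro was 0.219 (0.119 to 0.374) for Ly6c2, 0.228 (0.1004 to 0.455) for Ly6c1 and 0.220 (0.157 to 0.301) for the summed features. Marker sums of other classes were higher in the Tim3-KD cells. The 12 neutrophil markers summed to 115 CPM in Macro Ctrl and 326 in Macro Tim3-KD. The 8 monocyte markers came to 272 and 418, and the 12 B cell markers to 110 and 212. The monocyte list holds Ccr2, which stood at 213 to 346 CPM in NK cell or ILC1-like cells, so that sum is not a measure of other cells alone. The part of these sums in the ratio was not tested. In haematopoietic progenitor-like cells, Ly6c2 was at 59.9 CPM in AT Ctrl, 18.3 in Micro Ctrl and 66.8 in Micro Tim3-KD. The Micro ratio was 3.65 (2.76 to 4.90) for Ly6c2 and 2.44 (1.75 to 3.47) for Ly6c1, from 104 and 187 cells, and that of the summed features, with no joined UMIs in Ctrl, was 5.88 (4.80 to 7.28). The Macro ratio was 1.44 (0.989 to 2.16) for Ly6c2, and 1.49 (1.19 to 1.87) for the summed features, with joined UMIs in both libraries. The share of all features past 2-fold was not counted in the NK cell or ILC1-like and progenitor-like classes.

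The combination of Ly6g and Ly6c2 in single cells was examined at 1500 UMIs per cell, to which every cell was thinned because depth differed between classes. No cell was shallower. At this depth 59.4% to 82.3% of monocyte-like cells had a UMI of Ly6c2, and 0 to 0.151% also had Ly6g, the latter being 1 of 661 cells in Micro Ctrl. Before thinning, at medians of 10754 to 18378 UMIs per cell, 86.0% to 98.8% had Ly6c2 and 1.93% to 4.82% had Ly6g. B cell-like cells, at medians of 3484 to 9590 UMIs, had Ly6g in 0 to 2.703% of cells and Kupffer-like cells, at 8658.5 to 11586, had Ly6c2 in 0 to 0.428%, both after thinning. The Ly6g share of monocyte-like cells was thus at the background of these libraries.

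Both transcripts were found together at the highest share in myelocyte or metamyelocyte-like cells. After thinning the share with both was 24.5% (19.8 to 29.7) in AT Ctrl, 12.6% (9.62 to 16.1) in Micro Ctrl, 6.93% (5.44 to 8.70) in Micro Tim3-KD, 5.04% (2.05 to 10.1) in Macro Ctrl and 8.22% (4.94 to 12.7) in Macro Tim3-KD. AT Ctrl was the highest, and the Macro libraries and Micro Tim3-KD did not differ beyond counting error. These shares use the single Ly6c2 feature. AT Ctrl and Micro Ctrl have no joined UMIs, while in the other libraries 43.4% to 46.3% of the Ly6c UMIs of this class were joined. Whether the shares are like with like between these sets of libraries was not tested. Before thinning the shares were 88.9%, 65.0%, 56.0%, 46.8% and 44.3%. With at least 2 UMIs of each gene required, also before thinning, they were 80.1%, 46.5%, 37.2%, 29.5% and 26.5%. In mature neutrophil-like cells they were 1.31% to 5.93% after thinning, and in Micro Tim3-KD the intervals of both classes overlapped. That class was larger, so cells with both numbered 104, 21 and 28 there in Micro Tim3-KD, Macro Ctrl and Macro Tim3-KD, against 69, 7 and 18 in the myelocyte or metamyelocyte-like class. The share after thinning was 0 in B cell-like and Kupffer-like cells. UMIs of both genes in the same cell were thus found in neutrophils and were rare in monocyte-like cells.

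The features whose levels over classes and libraries were most like each gene differed between Ly6g and the Ly6c genes. The search covered the same 62 points, at log2 of CPM + 10, and the 1622 single features that every matrix holds. By Pearson's r the features most like Ly6g were Ceacam10 (r 0.99), Olfm4 (0.97), Cstdc6 (0.96), Ltf (0.95) and Mmp25 (0.94). Spearman's rho for these was 0.62, 0.55, 0.64, 0.70 and 0.48, which puts Ltf first among them. Ltf encodes lactotransferrin and Olfm4 olfactomedin 4, both proteins of the specific granules, and Mmp25 a membrane-bound protease of neutrophils. Their levels did not run in parallel at every stage: Ltf was at 2883 to 7332 CPM in the myelocyte or metamyelocyte-like class and 260 to 644 in the mature class, while Ceacam10 was at 85.6 to 108 and 90.8 to 179. For Ly6c2 they were, after Ly6c1, Ccr2 (0.69), Vcan (0.66), Hopx (0.65) and Thbs1 (0.63), and for Ly6c1, after Ly6c2, Vcan and Ccr2 (0.68 each), Thbs1 and Slpi (0.65 each). The lists depended on the settings: with 1 CPM added in place of 10, each shared 3 of its 5 features with the list given. With at least 100 cells a point the Ly6c lists shared 3 of 5 and the Ly6g list 4 of 5, and Hopx (0.83) and F13a1 (0.78) then stood next to Ly6c2 after Ly6c1, without Ccr2. Ccr2, the chemokine receptor by which monocytes leave the marrow, was at 501 to 929 CPM in monocyte-like cells and 227 to 342 in plasmacytoid dendritic cell-like cells. Vcan, the proteoglycan versican, was at 74.1 to 243 and 0 to 3.32 in the same classes, so these features followed Ly6c in monocytes and not all of them in plasmacytoid dendritic cells.

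Other members of the Ly6/uPAR family, from a list of 33 genes of which 5 were in the AT matrix, 4 in Micro and 7 in Macro, differed in the cells they marked. Cd177 was highest in the same classes as Ly6g. This glycosylphosphatidylinositol-anchored protein of neutrophils was at 729 to 952 CPM in myelocyte or metamyelocyte-like and 290 to 536 in mature neutrophil-like cells. Ly6d was found in B cell-like cells at 149 to 382 CPM and in plasmacytoid dendritic cell-like cells at 182 in Micro Ctrl and 243 in Macro Ctrl. Gpihbp1, which carries lipoprotein lipase on capillaries, was in endothelial-like cells at 1214 to 1697. Ly6a, the gene of Sca-1, was at 85.4 to 156 CPM in plasmacytoid dendritic cell-like cells and at most 0.547 in mature neutrophil-like cells. In lesion macrophage-like cells of Micro its level was 29.0 CPM with Ctrl tumour cells and 266 with Tim3-KD. Between Tim3-KD and Ctrl, 3 of 5 family genes in AT were at least 2-fold higher and 1 lower in whole libraries. Of all features there, 42.0% were past 2-fold in either direction. In Micro 2 of 4 family genes were lower and none higher, beside 18.5% in either direction. In Macro 2 of 7 were lower and none higher, beside 12.4% in either direction. In AT the genes included Gpihbp1, with 0.523 CPM for Ctrl and 36.7 for Tim3-KD, and Cd59a, with 0.392 and 18.1, while endothelial-like cells were 0.111% and 6.46% of cells, and the part of that share was not tested.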

How the data were processed

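Single-cell libraries (10x 3' v3.1) of CD45+ liver cells were made by the authors, 1 per group and each from 2 mice. The authors trimmed reads with Trim Galore 0.4.3, mapped them with STAR 2.7.7a to GRCm38, summed UMIs from exonic and intronic reads, and removed doublets and cells outside their limits. The deposited values were scaled scores, capped at 10, of variable features. Because the planned comparisons needed counts, UMIs were recovered by inverting the scaling. At least 99.9972% of recovered values in each matrix lay within 0.05 of a whole number, and no detected value of the 3 genes or the joined feature was at the cap. On simulated scores of 692 features, 99.6% of all values and 98.6% of the nonzero values were returned exactly.

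Levels are CPM over all UMIs of the cells. Intervals are exact (Poisson, conditional binomial or Clopper-Pearson) at 95%. Depth ranged from 7086531 to 79971794 UMIs per library, which sets these intervals. Cells were clustered with scanpy 1.11.5 (python 3.11.15, numpy 2.4.6, scipy 1.17.1, leidenalg 0.10.2) on the features shared by all matrices without the 3 genes and features joined from several genes, with 30 components, 15 neighbours and Leiden resolution 1. Classes were named from marker lists, needing at least 3 markers that were 2-fold higher, and are reported where a library held at least 50 cells. Classes were rebuilt from markers and may differ from those of the study. A doublet score over 0.15 was found in 7.04% to 12.0% of cells per library, and these cells were kept except in an alternative. Ratios across sites use separate matrices over totals of all UMIs. Counts of 2-fold differences took features with at least 100 UMIs over both libraries. For these counts and the medians beside them 0.5 UMIs were added to each sum, which sets the log2 ratio of a feature with 0 UMIs. AT Tim3-KD had 16 single features at 0 UMIs. Named genes were the members, the 5 features of highest r with each, and members of fixed lists. The members and lists were chosen with earlier results of these data known.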

Additional observations from a re-analysis of the deposited data

Results flagged for a closer look

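Several ratios of Tim3-KD to Ctrl pointed to opposite sides of 1 at different sites, and none of these differences between sites was tested, since each group is 1 library. Over whole libraries Ly6c2 was at a ratio of 0.592 in AT and 1.04 in Micro. Ly6g had 0 UMIs in AT Tim3-KD, at least 1099-fold lower at the limit of 3 UMIs, and a ratio of 1.06 in Micro. Without cells of a high doublet score that Micro ratio of Ly6g was just below 1, the same side as in AT. In lesion macrophage-like cells Ly6c1 was at 0.536 in Micro and 1.69 in Macro, and Ly6c2 at 0.543 and 1.20. The summed Ly6c features gave 0.998 in Micro, and without cells of a high doublet score the log2 ratio of Ly6c2 in Macro was -0.043, below 0 as in Micro. In myelocyte or metamyelocyte-like cells Ly6g was at 0.661 in Micro and 1.25 in Macro. Within that class cluster 3 was below 1 at both sites, while cluster 9 was below 1 in Micro and above it in Macro. The joined Ly6c1 and Ly6c2 feature, which enters no comparison of the single genes, stood at 242 CPM in AT Tim3-KD and 320 CPM in Micro Tim3-KD against 0 UMIs in the Ctrl library of each site.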

How the results depend on the processing

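No paired analysis was possible because each group holds 1 library and the labels give no replicate number that pairs libraries across groups, and for the same reason no library could be left out. Values here are log2 ratios and the causes of the shifts were not tested. For Tim3-KD over Ctrl, the mean over cells of UMIs per 10000 gave in AT -0.77 for Ly6c1 and -0.92 for Ly6c2, in Micro 0.15, 0.17 and 0.67 for Ly6c1, Ly6c2 and Ly6g, in Macro 0.64, 0.38 and 0.75, and 0.56 for Ly6g in mature neutrophil-like cells of Micro. It gave -0.46, -0.53 and -0.91 for Micro over AT, and -1.43 and -1.25 for Ly6c1 and Ly6c2 in Macro over Micro. Scaling by a trimmed mean over features, which moved the median of all features from 0.57 in AT, -0.43 in Micro, -0.26 in Macro, 0.30 in Micro over AT and 0.54 in Macro over Micro to near 0, gave -1.18 and -1.33 for Ly6c1 and Ly6c2 in AT, 0.42, 0.49 and 0.53 for the 3 genes in Micro, 1.23, 0.99 and 0.71 in Macro, -1.14, -1.23 and -1.26 for Micro over AT, -1.89, -1.70 and -2.30 for Macro over Micro, 0.46 and 0.74 for Ly6g in mature neutrophil-like cells of Micro and Macro, and 0.41 and 0.51 for Ly6c2 in monocyte-like cells. Without cells of a high doublet score, Ly6g in Micro turned from 0.09 to -0.010 and Ly6c2 in lesion macrophage-like cells of Macro from 0.26 to -0.043. That setting also gave -1.20 and -1.34 in AT, 0.0051 for Ly6c2 in Micro, 0.87, 0.61 and 0.63 in Macro, -0.76, -0.85 and -0.90 for Micro over AT, -1.44, -1.25 and -1.84 for Macro over Micro, 0.58 for Ly6g in myelocyte or metamyelocyte-like cells of Macro and 0.33 for Ly6c2 in monocyte-like cells of Macro.

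Summing the 3 Ly6c features, an alternative chosen after seeing the data, gave -0.039 in AT, 0.92 in Micro, 0.82 in Macro, -0.38 in Macro over Micro, 1.10 and 0.33 in monocyte-like cells of Micro and Macro and -0.0024 in lesion macrophage-like cells of Micro. Keeping the members in the clustering turned Ly6c2 in monocyte-like cells of Macro from 0.26 to -0.033, and gave 0.14 in those of Micro and 0.44 for Ly6g in myelocyte or metamyelocyte-like cells of Macro. Leiden resolution 0.5 gave -0.50 and 0.62 for Ly6g in myelocyte or metamyelocyte-like cells of Micro and Macro, 0.47 and 0.38 in mature neutrophil-like cells, and 0.60 for Ly6c2 in monocyte-like cells of Micro. Resolution 2 gave -0.43 and 0.68 for the former and 0.35 and 0.38 for Ly6c2 in monocyte-like cells. Keeping other joined features in the clustering, also chosen after seeing the data, gave -0.52 for Ly6g in myelocyte or metamyelocyte-like cells of Micro and 0.10 for Ly6c2 in monocyte-like cells of Macro.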
